A study of Mus musculus with 24 samples.

Results

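The mitosis genes examined here are 50 genes whose products carry a cell through division, from the cyclins that start mitosis to the ring that ends it, taken by symbol from the 17111 genes of the expression table. All 50 were found and all 50 were tested, having reached a value of 1 in 4 or more libraries, as 16985 genes did. They were followed in bulk RNA sequencing of mouse muscle stem cells, which express Pax7 and regenerate myofibres, handled in flow cytometry buffer with no gate given in the sources used here. The 24 libraries form 6 groups of 4, from 2 genotypes at 3 days. WT denotes the genotype labelled L2A-WT and KO the genotype labelled L2A-Pax7CreER, in which an inducible Cre driven by Pax7, a gene of muscle stem cells, is aimed at Lamp2a, the Lamp2 splice form of chaperone-mediated autophagy. Muscle was taken uninjured (day 0) or had been injected with 50 µL of 10 µM cardiotoxin, a venom toxin that kills myofibres, 1 or 4 days before. The age and sex of the mice and the induction of the Cre are not given in the sources used here. No group carries Cre with intact Lamp2a, so effects of the Cre allele and of Lamp2a loss cannot be told apart. The comparisons ask how mitosis genes change after injury in each genotype and whether the genotypes differ at each day.

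Mitosis is run by a kinase, CDK1, that becomes active when it binds cyclin B. Condensins and topoisomerase II then fold the chromosomes, kinetochores built on the centromere tie them to spindle microtubules, and a checkpoint holds the cell until every kinetochore is attached. The anaphase-promoting complex (APC/C) with CDC20 then destroys securin and cyclin B, separase cuts the sister chromatids apart, and a contractile ring divides the cell. Uninjured muscle stem cells are mostly quiescent, and they leave quiescence, copy their DNA and divide in the days after an injury. Most mitosis genes are transcribed late in the cell cycle, under the DREAM and MMB-FOXM1 complexes, which are known to act through a promoter element named the cell cycle homology region (CHR) and nearby CCAAT boxes.

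Values are the deposited normalised read counts, a linear scale in which each value is a whole read count plus 0.5 divided by a scaled library size in M reads. A library with 0 reads of a gene therefore reads between 0.0208 and 0.0457, and a library with 3 reads between 0.145 and 0.32. Total counts were 11.58 to 22.47 M per library. Values are not per length, so levels are compared between groups and not between genes. Log2 changes were taken after adding 1 to each value, so those of low genes are understated, and stand with their standard error from the limma model over all 24 libraries. A gene is said to rise or fall where the two-sided limma test gave an adjusted p under 0.05, adjusted by Benjamini-Hochberg over the 16985 genes of that comparison. Whether each library is its own animal is not stated in the labels, and p-values therefore measure spread between libraries that may be technical only. In bulk samples, fewer dividing cells and less RNA per dividing cell cannot be told apart.

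Lamp2, read at the level of the whole gene, stood at 509 to 869.7 in WT and 529.5 to 608 in KO at day 0, at 371 to 457 and 290.3 to 457 at day 1, and at 197 to 226 and 154 to 266 at day 4. The genotypes overlapped at every day, and a gene-level value sums all splice forms, so it checks neither the labels nor the loss of Lamp2a. Markers of muscle stem cells were present in every library, with a summed value over 10 markers of 2535 to 3461 in WT and 2809 to 3248 in KO at day 0, and 1129 to 1277 in WT and 1127 to 1303 in KO at day 4. At day 1 the sum was 3844 to 5614 in WT and 4714 to 6343 in KO. In WT, 7 of the 10 markers fell from day 0 to day 4, where 17.3% of all genes fell. Correlations between libraries of a group were 0.852 to 0.883 at day 0, 0.968 to 0.985 at day 1, 0.951 to 0.956 in WT at day 4 and 0.884 to 0.908 in KO at day 4.

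Values of the mitosis genes varied most between uninjured libraries. The median coefficient of variation of the 50 genes was 106% in WT and 84.7% in KO at day 0, against 31.5% and 54.4% at day 1 and 27.7% and 57.1% at day 4. Over all genes it was 60.6% and 60.4% at day 0, 26.5% and 33.0% at day 1, and 27.7% and 43.7% at day 4, so the uninjured libraries were uneven for all genes. In uninjured WT, 36 of the 50 genes had at least 1 library with 3 reads or fewer, and 24 did in uninjured KO. The high value of a gene came from different libraries. In uninjured KO, replicate 3 was the highest library for 24 genes, replicate 1 for 15, replicate 4 for 6 and replicate 2 for 5. For 14 genes, replicate 3 held over 50% of the group's summed value, and for 8 genes replicate 1 did. Replicate 1 held 97.0% of the summed value of Plk1, 87.3% of Mki67, 65.7% of Tpx2 and 62.6% of Kif4, but 0.135% of Cdc20 and 0.336% of Cenpe. Without it the KO mean of Mki67 was 2.10 in place of 12.4, and that of Plk1 was 0.0906 in place of 2.23. The median of the 50 KO means was 7.33 without replicate 1 and 7.82 with it, against 1.75 in WT, and 41 of 50 KO means were above the WT mean either way.

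Promoters are shown because 45 of the 50 genes were higher in WT at day 4 than at day 0, as described below, and because late cell cycle genes are known for these elements. RefSeq promoter windows of 300 bases, from 250 before to 50 after a start, were matched for 41 of the 50 genes on the build GRCm38.p6, which is not the build of the expression table, mm39. The CHR was searched as TTTGAA or TTCGAA and the CCAAT box as CCAAT, each on both strands, and on the reverse strand a CHR can read TTCAAA and a CCAAT box reads ATTGG. A CHR was found in 32 of the 41 genes (78.0%), against 17.1% of 11303 genes of the expression table with a window and 21.7% of all 27025 genes with one. A CCAAT box was found in 75.6% of the mitosis genes, against 43.1% and 41.1%. A CHR together with at least 2 CCAAT boxes was found in 20 of the 41 (48.8%), against 2.72% and 2.68%. A match of letters is a description and not a binding site. The median log2 change from day 0 to day 4 in WT was 2.86 for the 32 genes with a CHR and 2.06 for the 9 without, and the ranges of −1.14 to 5.31 and −2.91 to 3.70 overlapped. The 6 promoters with a CHR and at least 2 CCAAT boxes whose genes had the largest change from day 0 to day 4 in WT on the log2(value + 1) scale follow. That scale ranks genes with few reads at day 0 lower than a plain fold would. They are read 5′ to 3′ on the gene's strand from 250 bases before the start to 30 bases after it. Capitals mark CHR and CCAAT matches.
Mki67, chr7:135716350-135716629, minus strand: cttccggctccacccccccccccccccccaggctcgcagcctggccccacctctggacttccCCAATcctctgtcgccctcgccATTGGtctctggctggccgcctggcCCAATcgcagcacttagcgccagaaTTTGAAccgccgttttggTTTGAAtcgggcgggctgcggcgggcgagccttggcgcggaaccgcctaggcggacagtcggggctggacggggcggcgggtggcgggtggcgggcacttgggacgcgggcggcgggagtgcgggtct
Cenpa, chr5:30666636-30666915, plus strand: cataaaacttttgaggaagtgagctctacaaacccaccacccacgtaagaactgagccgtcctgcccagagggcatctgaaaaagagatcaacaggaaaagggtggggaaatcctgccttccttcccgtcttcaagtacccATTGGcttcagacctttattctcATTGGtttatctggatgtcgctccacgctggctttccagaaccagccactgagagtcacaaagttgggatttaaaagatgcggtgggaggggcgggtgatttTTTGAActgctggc
Cenpf, chr1:189688057-189688336, minus strand: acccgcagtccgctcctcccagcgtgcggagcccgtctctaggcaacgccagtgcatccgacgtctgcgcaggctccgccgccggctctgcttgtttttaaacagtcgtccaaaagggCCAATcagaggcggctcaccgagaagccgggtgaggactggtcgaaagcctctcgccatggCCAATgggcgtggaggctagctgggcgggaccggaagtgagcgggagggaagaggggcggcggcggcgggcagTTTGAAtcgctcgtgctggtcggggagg
Ube2c, chr2:164769679-164769958, plus strand: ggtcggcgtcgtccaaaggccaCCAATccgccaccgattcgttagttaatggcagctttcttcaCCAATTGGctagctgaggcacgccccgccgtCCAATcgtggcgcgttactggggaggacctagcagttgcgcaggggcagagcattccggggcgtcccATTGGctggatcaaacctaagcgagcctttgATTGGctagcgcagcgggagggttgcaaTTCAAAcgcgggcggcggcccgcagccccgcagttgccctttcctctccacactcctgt
Top2a, chr11:99024160-99024439, minus strand: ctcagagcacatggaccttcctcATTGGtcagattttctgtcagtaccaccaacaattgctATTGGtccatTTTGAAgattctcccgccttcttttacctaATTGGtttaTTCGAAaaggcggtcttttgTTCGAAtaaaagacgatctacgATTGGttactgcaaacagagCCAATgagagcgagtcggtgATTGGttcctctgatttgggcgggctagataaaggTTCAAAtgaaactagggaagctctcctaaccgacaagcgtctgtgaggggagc
Ccnb2, chr9:70421525-70421804, minus strand: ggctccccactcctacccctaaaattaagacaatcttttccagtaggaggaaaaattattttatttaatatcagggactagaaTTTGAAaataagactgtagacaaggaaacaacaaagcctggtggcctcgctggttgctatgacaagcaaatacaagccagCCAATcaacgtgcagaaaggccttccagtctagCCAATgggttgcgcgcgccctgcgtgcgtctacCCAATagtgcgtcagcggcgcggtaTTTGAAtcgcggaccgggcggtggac
In Cenpf, Cenpa and Ccnb2 a CHR begins at 2, 16 and 4 bases from the start, and in Ube2c and Top2a a reverse CHR begins at −29 and −23. The 2 CHR matches of Mki67 begin at −116 and −98. In Ube2c a CCAAT box overlaps a reverse box as CCAATTGG.

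**Figure D1:**
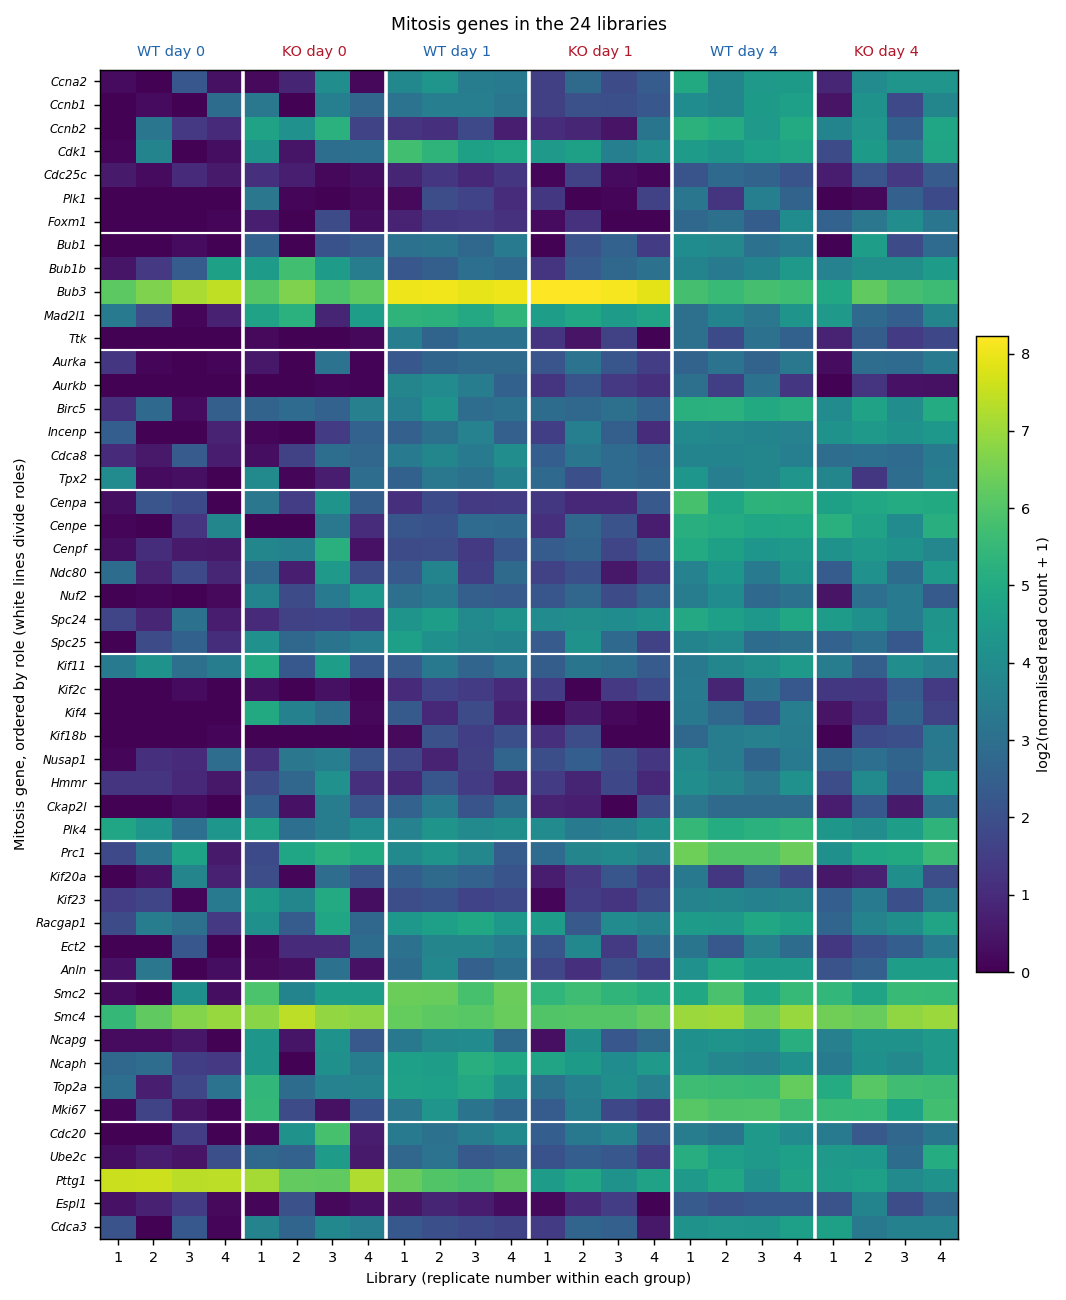
Colour shows log2(normalised read count + 1) of the 50 mitosis genes (rows, ordered by role) in the 24 libraries (columns, replicates 1 to 4 of each group). Uninjured WT columns are mostly dark with scattered bright cells, uninjured KO columns hold more bright cells in differing libraries, and the WT day 4 columns are bright for most genes.

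In WT, nearly all mitosis genes were higher 4 days after injury than before it. From day 0 to day 4, 45 of the 50 rose and 2 fell, where 23.4% of all genes tested rose and 17.3% fell, and the median log2 change of the 50 was 2.84. On the log2(value + 1) scale the largest rise was that of Mki67, the marker of cycling cells, with 5.31 ± 0.72, and the lowest change was that of Pttg1, which encodes securin, with −2.91 ± 0.29. By plain ratio of normalised counts, genes with 1 or 2 reads in uninjured WT had the larger rises, such as Kif18b with a ratio of 528 and an exact 95% interval of 94.5 to 20900 that covers counting error only. In 41 genes every WT library at day 4 was above every uninjured WT library, and in 2 every one was below, where 21.7% and 17.3% of all genes tested were so separated. With the 4 genes that had 0 reads in uninjured WT (Plk1, Ttk, Aurkb and Kif4) set to their bounds, the median was 3.06. The median change of all genes tested was 0.23.

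The calls placed the rise in different steps for different genes, and the steps were not tested against each other. By day 1, 27 rose and Pttg1 fell, where 26.8% of all genes rose and 24.2% fell, and the median log2 change was 1.81, or 2.02 with the same 4 genes at their bounds. In 31 genes every WT library at day 1 was above every uninjured one, and in Pttg1 every one was below (25.8% and 23.7% of all genes). From day 1 to day 4, 26 rose and 6 fell, where 38.8% and 30.8% of all genes did, with a median of 0.97. Libraries of these days did not overlap in 23 genes that were higher and 4 that were lower at day 4 (34% and 28.4% of all genes). The count of risers between day 1 and day 4 was 11 by edgeR and 16 by DESeq2, shares near the 24% and 28.6% of all genes. That by day 1 was 29 and 27, where 23.4% and 26.1% of all genes rose. Markers of myofibres moved over this first step too, with 9 of 10 higher at day 1 than at day 0 in WT and 0 higher in KO, and their part in the result was not tested.

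By their calls, 17 genes rose by day 1 with no call after it, among them Ccnb1, Cdk1, Bub1, Ttk and Cdc20. Birc5, Anln, Top2a, Mki67 and Ube2c rose in both steps. Mad2l1, Aurkb, Smc2 and Ncaph rose by day 1, fell by day 4 and were still above day 0. Another 19 genes rose between day 1 and day 4 and had no call by day 1, among them Ccnb2, Plk1, Cenpa, Cenpf and Prc1. Of these 19, Plk1 and Foxm1, with 0 and 1 reads in uninjured WT, were higher by day 1 too by plain ratio. Their ratios were at least 28.3 and 69.4, and those of Kif2c, Kif4 and Kif18b are given below. Kif11 and Smc4 rose only from day 1 to day 4, Kif20a was not called in any WT step, Bub3 rose and then fell below day 0, and Pttg1 fell in both.

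In KO few mitosis genes were called between day 0 and day 1, on a scale that understates low genes. By plain ratio, Aurkb, Ttk and Kif18b, with 0 to 3 reads in uninjured KO, were higher at day 1 without a call. Their ratios were 110.6, 17.7 and at least 19.95. By day 1, 3 genes rose (Bub3, Spc24 and Ncaph) and 8 fell (Ccnb2, Bub1b, Cenpa, Kif4, Kif23, Smc4, Pttg1 and Cdca3), where 22.6% of all genes rose and 19.3% fell. The median log2 change was −0.18, and 0.05 without KO day 0 replicate 1, without which the count of fallers was 5. Without KO day 0 replicate 3 it was 4. By edgeR and DESeq2 the risers were 6, where 20.3% and 20.9% of all genes rose. The fallers by these methods were 9 and 12, where 22.8% and 27.6% of all genes fell. Libraries of the 2 days did not overlap in 3 higher and 4 lower genes (20.9% and 19.3% of all genes).

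In KO, 22 mitosis genes rose from day 1 to day 4 and 2 fell (Bub3 and Mad2l1), where 29.6% and 25.9% of all genes did, with a median of 0.82. Of the 26 genes that rose in WT over the same step, 20 were also among the 22 risers in KO. Libraries of the 2 days were separate in 19 higher and 2 lower genes (26.2% and 23.9% of all genes). By edgeR 14 genes rose, a share near the 24.4% of all genes. Against day 0, 10 genes had risen in KO at day 4 (Foxm1, Birc5, Incenp, Cenpa, Cenpe, Spc24, Anln, Top2a, Mki67 and Espl1) and Pttg1 fell, where 15.3% of all genes rose and 13.8% fell, so the share of risers was near that of all genes. The median was 0.85, and 8 higher genes and 1 lower were separate (14.7% and 14.2% of all genes). Without library weights 16 rose, where 22.3% of all genes did, and without KO day 0 replicate 2 there were 6. In 22 of the 50 genes no KO step was called, and the share of all genes without a call was not counted. Among the 22, Kif18b, Ttk and Aurkb, with 0 to 3 reads in uninjured KO, were higher at day 4 by plain ratio. Their ratios to day 0 were at least 75.4, 43.7 and 25.4. The exact intervals of Ttk and Aurkb, 14.6 to 214.8 and 4.14 to 1044, cover counting error only.

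**Figure D2:**
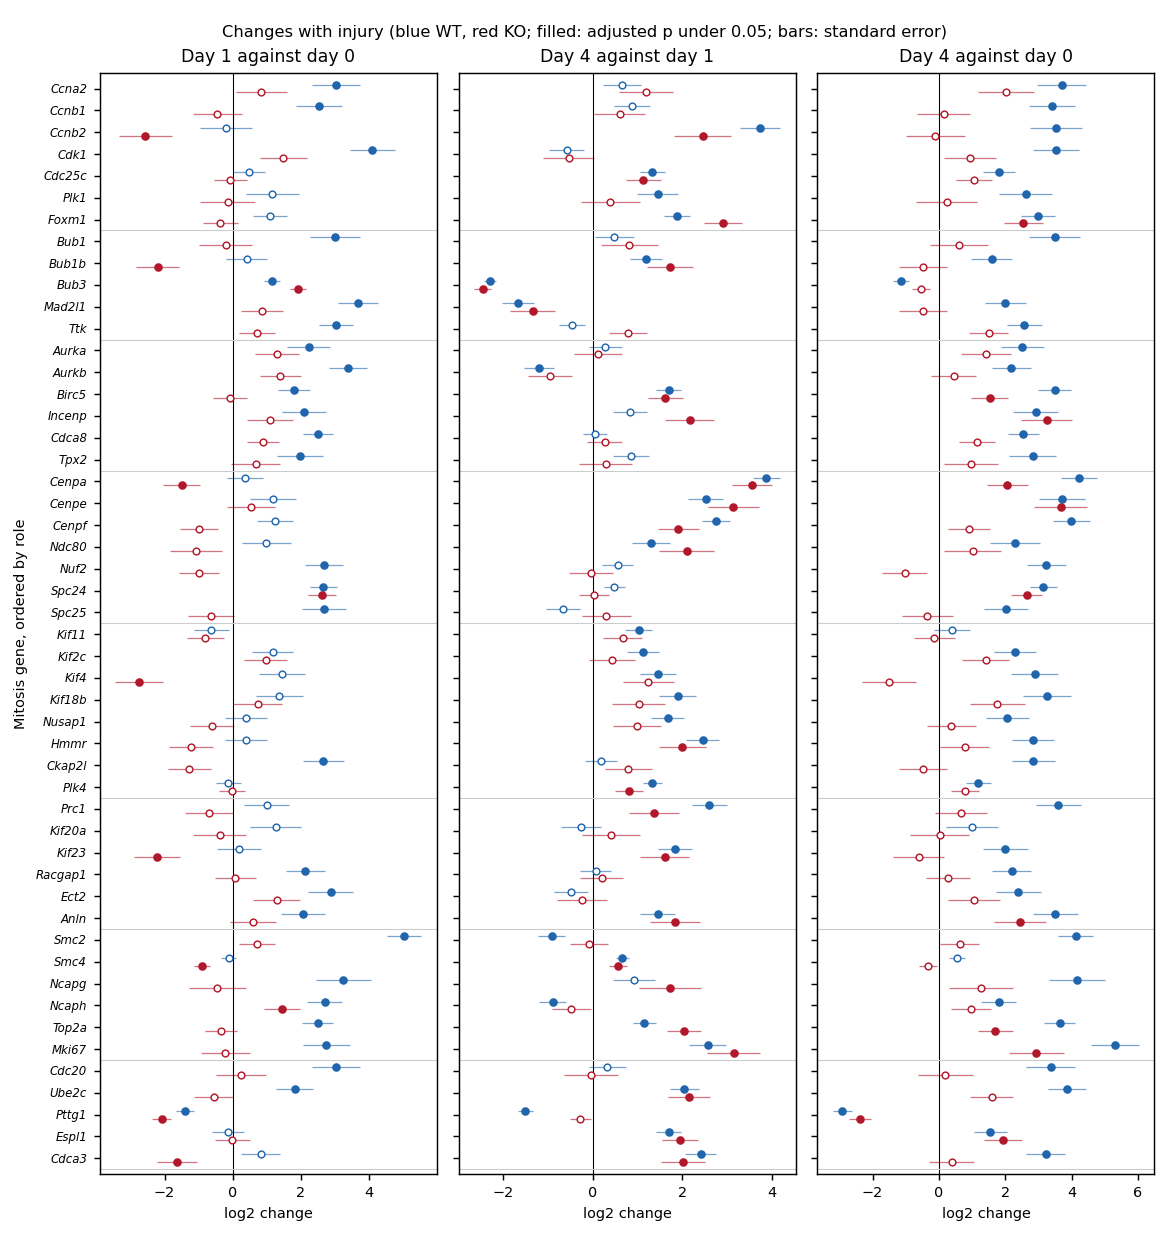
Log2 change with its standard error for each of the 50 mitosis genes (rows) in WT (blue) and KO (red), for day 1 against day 0, day 4 against day 1 and day 4 against day 0. Filled points passed the limma test. Blue points lie right of red ones for most genes in the panels that start from day 0, with 45 filled blue points above 0 for day 4 against day 0, and the colours lie closer together for day 4 against day 1.

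At day 0 most mitosis genes had higher means in KO than in WT, but few passed the test. The log2 difference was positive in 41 of 50, with a median of 0.97 (1.15 with Plk1 and Kif4 at their bounds). Only Nuf2, a kinetochore subunit, and Smc2, a condensin subunit, were called higher and 0 lower, where 0.83% of all genes were higher and 0.759% lower, and 17 had an unadjusted p under 0.05. The libraries did not overlap in 5 genes that were higher in KO (Spc25, Cdca3, Nuf2, Kif4 and Ckap2l) and in Pttg1, which was lower (3.23% and 3.74% of all genes). The number called depended strongly on the method, with 12 higher by edgeR, 17 higher and 2 lower by DESeq2, 13 higher and 1 lower without library weights, and 0 with only the groups compared. The share of all genes called was larger too by edgeR (4.55% higher), by DESeq2 (7.79% higher and 7.24% lower) and without library weights (4.82% higher and 4.93% lower). With only the groups compared the share was smaller, at 0.2% higher and 0.2% lower. The number of mitosis genes called higher was 1 without WT day 0 replicate 2, WT day 0 replicate 3 or KO day 0 replicate 1. Left out in turn, the libraries moved the median between 0.85 and 1.38. At the same day the summed value of 9 markers of fibro-adipogenic progenitors was 934 to 1238 in WT and 2098 to 2492 in KO, with 2 of 9 called higher. That of 7 markers of smooth muscle and pericytes was 164 to 246 in WT and 314 to 726 in KO, with 0 called, and that of 10 markers of myofibres 9.51 to 31.2 and 33.0 to 79.6, with 1 called higher. Their part in the result was not tested.

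At day 1 a part of the mitosis genes was lower in KO than in WT. The log2 difference was negative in 45 of 50, with a median of −0.64, and 17 genes were called lower and 0 higher, where 11.5% of all genes were lower and 15.2% higher. Among the 17 were Pttg1, the checkpoint kinase Ttk, the passenger kinase Aurkb, the spindle protein Ckap2l, Top2a, the ring scaffold Anln, the cyclins Ccna2 and Ccnb1, and Mki67. In 13 of the 50, every KO library was below every WT library and in 0 above (12.3% and 13.9% of all genes). This count too depended on the method. Without library weights and by DESeq2 4 genes were called lower, and by edgeR 1, and with these methods the share of all genes called lower was 2.08%, 3.69% and 1.41%. Pttg1 was called in all 33 other settings. Without KO day 1 replicate 4 there were 10. The median ranged from −0.90 to −0.35 over the other settings and from −0.76 to −0.56 with libraries left out. Markers of myofibres, the fibres of the muscle, differed at this day too. Their summed value over 10 genes was 183 to 259.5 in WT and 18.3 to 57.1 in KO, 9 of 10 were called lower, and their part in the result was not tested. Markers of fibro-adipogenic progenitors summed to 868 to 1259 in WT and 1719 to 2471 in KO, with 4 of 9 called higher, and their part was not tested either.

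At day 4 no mitosis gene was called between the genotypes. Limma called 0 higher and 0 lower, where 0.565% of all genes were higher and 0.689% lower, 10 had an unadjusted p under 0.05, edgeR called 0 and DESeq2 1 lower. The difference was negative in 44 of 50, with a median of −0.60. Incenp did not overlap and was higher in KO, and Aurkb, Cdca8, Kif23 and Prc1 did not overlap and were lower (3.84% and 3.86% of all genes). The 4 KO libraries were not alike. Library medians of the 50 genes were 2.81, 3.81, 3.33 and 4.00 on the log2 scale, against 3.99, 3.79, 3.78 and 4.28 in WT, and KO replicate 1 was the lowest KO library for 28 of the genes. Markers of macrophages and monocytes, cells that divide and enter injured muscle, summed over 15 genes to 1583 to 2197 in WT and 1317 to 1446 in KO at day 4, against at most 113 at days 0 and 1. In all 4 libraries of a group, 9 of the 15 were at 3 reads or fewer in WT and 6 in KO at day 0, 2 in WT (Csf1r and Ptprc) and 3 in KO (Itgam, Ptprc and C1qb) at day 1, and 0 at day 4. They rose from day 0 to day 4 in 15 of 15 genes in WT and 14 of 15 in KO (23.4% and 15.3% of all genes). Their part in the day 4 values of the mitosis genes was not tested.

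**Figure D3:**
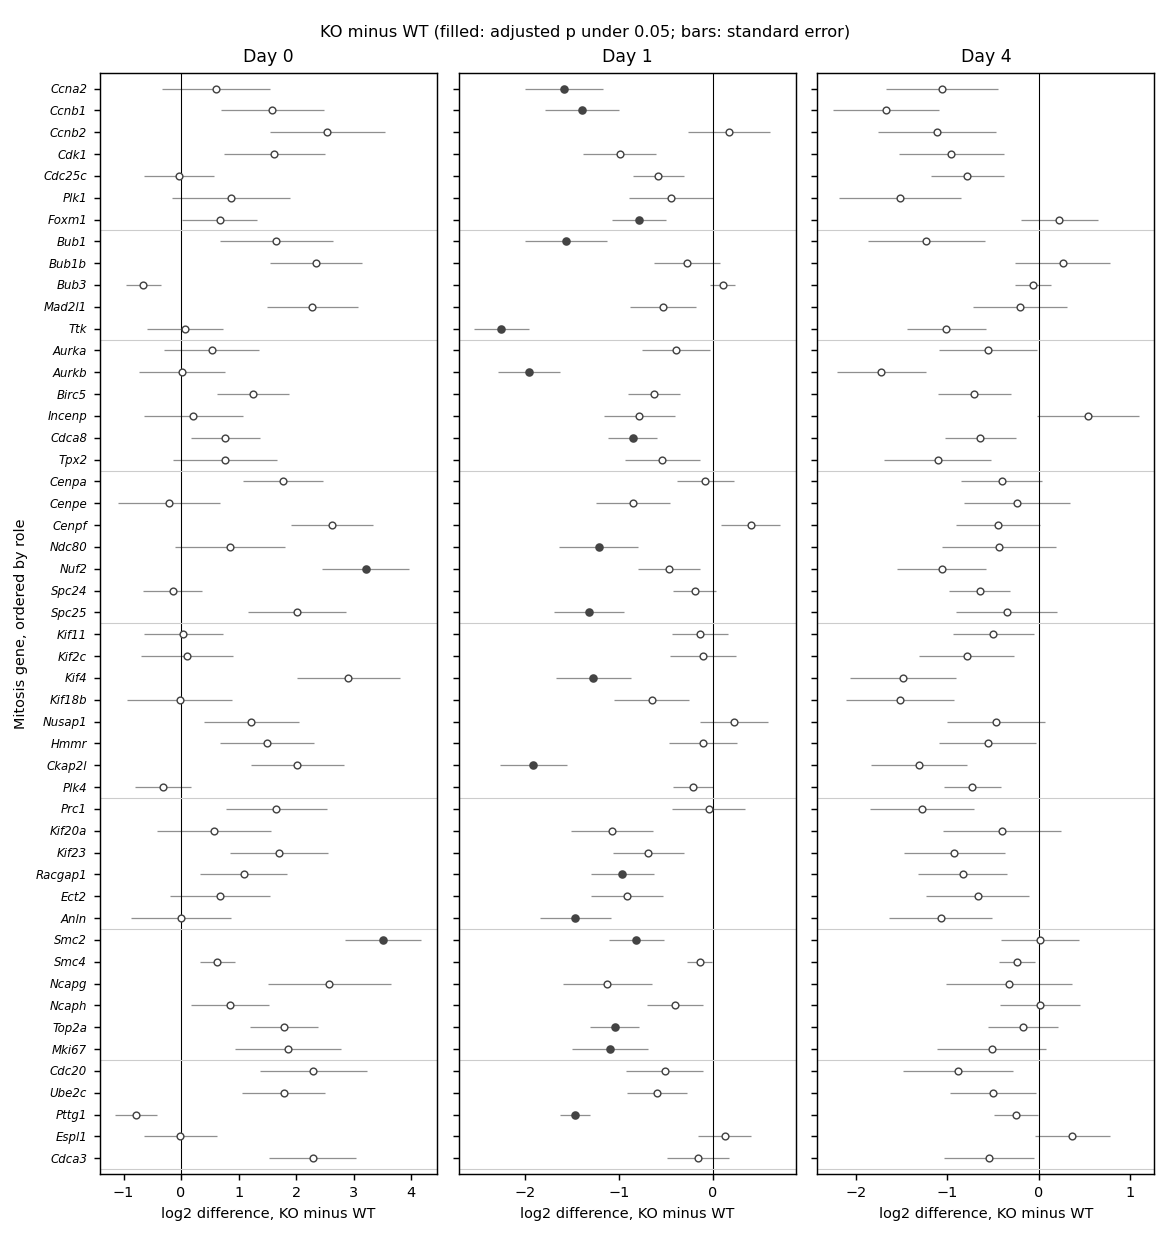
Log2 difference, KO minus WT, with its standard error for each of the 50 mitosis genes (rows) at days 0, 1 and 4. Filled points passed the limma test. Most points lie right of 0 at day 0 (41 of 50), left of it at day 1 (45) and left of it at day 4 (44), with 2, 17 and 0 filled.

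The difference between the genotypes was itself tested as a change over days. By day 1 the change in KO was lower than that in WT in 47 of 50 genes, with a median of −1.86, and 9 were called, where 3.33% of all genes were lower and 5.75% higher. These were Smc2, Nuf2, Ckap2l, Top2a, Kif4, Spc25, Mad2l1, Ttk and Ncapg. DESeq2 called 19 (7.97% of all genes), and leaving out a library gave 6 to 11. Markers of myofibres showed the same direction, with 8 of 10 called lower and a median of −2.78, and their part in the result was not tested. Over days 0 to 4 it was lower in 46 genes, with a median of −1.90, and Nuf2, Smc2 and Kif4 were called (0.665% of all genes lower and 0.595% higher). There the count was 7 without library weights, 1 with only the groups compared, 5 by edgeR and 10 by DESeq2, where 1.98%, 1.6% and 3.93% of all genes were lower without weights, by edgeR and by DESeq2. It was 1 without WT day 0 replicate 1, 2 or 4 or KO day 0 replicate 1, and 5 without KO day 0 replicate 4. From day 1 to day 4 the median was 0.07 and Pttg1 alone was called, higher (2.45% of all genes higher and 6.59% lower). Over those days 8 of 10 myofibre markers were called higher. The comparisons share the uninjured libraries, whose spread was described above.

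Counts by role, here and below, stand against these shares of all genes. In WT, 26.8% rose by day 1, 38.8% from day 1 to day 4 and 23.4% from day 0 to day 4. In KO, 22.6%, 29.6% and 15.3% did. At day 1, 11.5% were lower in KO than in WT. No difference between roles was tested. Of the 7 cyclins, CDK1 and their activators, 3 rose in WT by day 1, 4 between day 1 and day 4, and all 7 from day 0 to day 4. In KO, Foxm1 was the only one of them higher at day 4 than at day 0, and Ccna2, Ccnb1 and Foxm1 were lower in KO than in WT at day 1. Ccnb1 encodes cyclin B1, the main mitotic partner of CDK1. Ccnb1 (ENSMUSG00000041431) read 0.0344, 0.182, 0.0385 and 6.55 in uninjured WT, 7.87, 10.3, 10.4 and 8.29 at day 1 and 14.9, 12.6, 21.3 and 24.2 at day 4. In KO, Ccnb1 read 8.73, 0.0358, 10.8 and 5.53 uninjured, 1.92, 3.10, 2.998 and 3.66 at day 1 and 0.353, 17.1, 2.49 and 12.7 at day 4. Both genotypes held scattered high libraries when uninjured, the 4 WT libraries at day 1 were all above the 4 of KO, and at day 4 KO ran from near 0 to within the WT range. Ccnb1 rose by 2.53 ± 0.68 in WT by day 1 (adjusted p = 0.00279), changed by −0.45 ± 0.71 in KO (adjusted p = 0.655), and was lower in KO at day 1 (log2 difference −1.40 ± 0.39, adjusted p = 0.00916).

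Cdk1 encodes the kinase that drives entry into mitosis. Cdk1 (ENSMUSG00000019942) read 0.103, 12.2, 0.0385 and 0.233 in uninjured WT, 52.0, 39.5, 24.5 and 28.4 at day 1 and 22.5, 18.3, 23.99 and 27.2 at day 4. In KO, Cdk1 read 18.1, 0.394, 6.76 and 7.08 uninjured, 20.2, 24.8, 10.8 and 14.7 at day 1 and 2.71, 21.6, 8.64 and 27.0 at day 4. Replicate 2 of uninjured WT and 3 uninjured KO libraries were far above the rest of their groups, and at day 1 only KO replicate 2 reached the lowest WT library. Cdk1 rose by 4.10 ± 0.66 in WT by day 1 (adjusted p = 1.18e-05), and the genotype difference at day 1, −0.996 ± 0.39, did not pass (adjusted p = 0.0586).

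Plk1 encodes the polo-like kinase of spindle poles, kinetochores and cytokinesis. Plk1 (ENSMUSG00000030867) read 0.0344, 0.0365, 0.0385 and 0.0332 in uninjured WT, 0.145, 2.87, 2.18 and 1.06 at day 1 and 8.38, 1.40, 10.7 and 5.20 at day 4. In KO, Plk1 read 8.66, 0.107, 0.0276 and 0.137 uninjured, 1.53, 0.0240, 0.0782 and 2.005 at day 1 and 0.0393, 0.123, 4.75 and 2.63 at day 4. No read of Plk1 was found in uninjured WT, and in uninjured KO nearly all came from replicate 1. Plk1 was at least 123-fold higher in WT at day 4 than at day 0, against a floor of 3 reads over the group, and rose by 1.45 ± 0.46 from day 1 to day 4 (adjusted p = 0.00671). Ccna2, cyclin A2, went from 1.04 ± 1.75 (SD, n = 4) in uninjured WT to 12.9 ± 4.20 at day 1, where it was 3.75 ± 1.86 in KO, lower (log2 difference −1.59 ± 0.41, adjusted p = 0.00505). Ccnb2, cyclin B2, followed another course in KO, where it stood at 20.4 ± 14.7 uninjured, 2.63 ± 3.77 at day 1 and 15.8 ± 9.74 at day 4, a fall and a rise that both passed. Foxm1, the transcription factor of late cell cycle genes, rose from day 1 to day 4 by 1.89 ± 0.29 in WT and 2.90 ± 0.42 in KO, and Cdc25c, a phosphatase that activates CDK1, by 1.33 ± 0.27 and 1.13 ± 0.39.

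Of the 5 spindle checkpoint genes, Bub1, Bub3, Mad2l1 and Ttk rose in WT by day 1. Bub1b did so only between day 1 and day 4. In KO only Bub3 rose by day 1, and Bub1 and Ttk were lower in KO than in WT at that day. Ttk encodes the kinase, also named MPS1, that starts the checkpoint signal. Ttk (ENSMUSG00000038379) read 0.0344, 0.0365, 0.0385 and 0.0332 in uninjured WT, 10.5, 5.30, 7.67 and 7.41 at day 1 and 7.21, 2.61, 7.38 and 4.86 at day 4. In KO, Ttk read 0.166, 0.0358, 0.0276 and 0.137 uninjured, 1.42, 0.360, 2.01 and 0.0267 at day 1 and 0.746, 4.40, 1.74 and 2.43 at day 4. Uninjured libraries of both genotypes were at or near 0 reads, and at day 1 every WT library was above every KO library. Ttk was at least 146-fold higher in WT at day 1 than uninjured, and it was lower in KO at day 1 (log2 difference −2.26 ± 0.29, adjusted p = 1.23e-06). Its change from day 0 to day 1 was lower in KO (log2 difference −2.33 ± 0.72, adjusted p = 0.0419), a call that 20 of 33 other settings kept.

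Bub1b encodes BUBR1, part of the checkpoint complex that holds back the APC/C. Bub1b (ENSMUSG00000040084) read 0.378, 1.57, 4.27 and 24.7 in uninjured WT, 3.72, 4.66, 6.96 and 6.08 at day 1 and 12.03, 9.56, 12.1 and 20.9 at day 4. In KO, Bub1b read 22.3, 51.9, 22.4 and 9.91 uninjured, 1.36, 4.15, 5.76 and 7.41 at day 1 and 11.6, 15.7, 15.7 and 22.4 at day 4. All 4 uninjured KO libraries were above 3 of the 4 uninjured WT libraries, and the genotypes overlapped at days 1 and 4. Bub1b rose by 1.18 ± 0.36 in WT and 1.72 ± 0.51 in KO from day 1 to day 4 (adjusted p = 0.00496 and 0.00609). It fell by 2.21 ± 0.63 in KO from day 0 to day 1 (adjusted p = 0.00615). Bub3, a partner of both BUB kinases, rose by day 1 and fell by day 4 in both genotypes, from 121 ± 45.1 in WT and 73.3 ± 17.6 in KO to 256 ± 10.8 and 276 ± 29.1 at day 1, then to 51.5 ± 3.88 and 51.7 ± 18.3. Mad2l1, which encodes the CDC20-binding MAD2, peaked at day 1 in WT at 37.2 ± 4.79 and was at 25.4 ± 3.30 in KO at that day. Its change from day 0 to day 1 was lower in KO (log2 difference −2.81 ± 0.87, adjusted p = 0.041), a call kept in 17 of 33 other settings. Bub1, the kinetochore kinase, had 2 reads over the uninjured WT libraries, read 7.72 ± 1.54 in WT and 2.52 ± 2.15 in KO at day 1, and was lower in KO (log2 difference −1.56 ± 0.43, adjusted p = 0.00822).

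All 6 genes of the chromosomal passenger complex and Aurora A rose in WT by day 1 and were still higher at day 4 than at day 0. In KO, 0 of the 6 were called at day 1 against day 0, and Birc5 and Incenp were higher at day 4. Aurkb encodes the kinase of the complex, which corrects faulty attachments. Aurkb (ENSMUSG00000020897) read 0.0344, 0.0365, 0.0385 and 0.0332 in uninjured WT, 12.5, 14.7, 9.92 and 4.90 at day 1 and 7.21, 1.90, 7.38 and 1.47 at day 4. In KO, Aurkb read 0.0332, 0.0358, 0.0828 and 0.0457 uninjured, 1.36, 3.38, 1.59 and 1.203 at day 1 and 0.0393, 1.36, 0.307 and 0.292 at day 4. Uninjured libraries had at most 1 read, all WT libraries at day 1 were above all KO libraries, and at day 4 all KO libraries were below all WT libraries. Aurkb was at least 199.5-fold higher in WT at day 1 than uninjured, against the floor of 3 reads over the group. It was lower in KO at day 1 (log2 difference −1.96 ± 0.33, adjusted p = 5.59e-05), and at day 4 the difference of −1.72 ± 0.49 did not pass (adjusted p = 0.0907).

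Cdca8, which encodes borealin, stood at 11.7 ± 2.90 in WT and 6.05 ± 1.72 in KO at day 1, and was lower in KO (log2 difference −0.85 ± 0.26, adjusted p = 0.0163). Birc5, which encodes survivin, rose in both WT steps and reached 34.7 ± 3.04 in WT and 21.97 ± 8.45 in KO at day 4. Incenp, the scaffold of the complex, reached 12.6 ± 0.946 in WT and 18.9 ± 1.44 in KO, the only one of the 50 genes that was higher in every KO library at day 4. Tpx2, the activator of Aurora A on the spindle, went from 3.83 ± 7.33 to 15.2 ± 4.29 in WT, and Aurka from 0.432 ± 0.699 to 6.73 ± 1.86. Neither was called between the genotypes at any day.

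All 7 kinetochore and centromere genes were higher in WT at day 4 than at day 0. Nuf2, Spc24 and Spc25 rose by day 1, and Cenpa, Cenpe, Cenpf and Ndc80 between day 1 and day 4. The NDC80 complex, made of NDC80, NUF2, SPC24 and SPC25, is the part of the kinetochore that grips microtubules. Ndc80 (ENSMUSG00000024056) read 6.57, 0.766, 2.50 and 0.831 in uninjured WT, 3.97, 12.1, 1.85 and 6.23 at day 1 and 11.5, 19.01, 9.74 and 17.4 at day 4. In KO, Ndc80 read 5.94, 0.608, 21.01 and 2.69 uninjured, 2.08, 3.05, 0.443 and 1.52 at day 1 and 4.20, 17.1, 6.45 and 20.5 at day 4. Uninjured values of both genotypes overlapped, as did those at days 1 and 4. Ndc80 was lower in KO at day 1 (log2 difference −1.22 ± 0.42, adjusted p = 0.0333, kept in 23 of 33 other settings) and rose in KO by 2.09 ± 0.62 from day 1 to day 4 (adjusted p = 0.00586).

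Nuf2 differed between the genotypes before injury. Nuf2 (ENSMUSG00000026683) read 0.0344, 0.110, 0.0385 and 0.166 in uninjured WT, 7.21, 8.92, 4.67 and 4.11 at day 1 and 10.3, 15.1, 6.06 and 7.44 at day 4. In KO, Nuf2 read 11.98, 2.68, 9.63 and 18.9 uninjured, 3.64, 5.54, 2.69 and 4.73 at day 1 and 0.353, 7.03, 9.53 and 3.99 at day 4. All 4 uninjured KO libraries were above all 4 uninjured WT libraries, which held 3 reads in all. The ratio of KO to WT was 193, with an exact 95% interval of 65.7 to 939 that covers counting error only, and the log2 difference was 3.21 ± 0.75 (adjusted p = 0.0245), a call kept in 25 of 33 other settings. The change from day 0 to day 1 was lower in KO (log2 difference −3.68 ± 0.82, adjusted p = 0.00508) and that from day 0 to day 4 too (log2 difference −4.27 ± 0.90, adjusted p = 0.0149), and both calls held in all 33.

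Spc25, another subunit of the complex, was also higher in every uninjured KO library. Spc25 (ENSMUSG00000005233) read 0.0344, 2.66, 4.81 and 1.10 in uninjured WT, 24.1, 16.3, 13.1 and 11.99 at day 1 and 12.1, 14.4, 6.46 and 7.21 at day 4. In KO, Spc25 read 16.8, 5.69, 7.98 and 10.5 uninjured, 4.08, 17.4, 5.97 and 2.11 at day 1 and 4.99, 7.03, 3.86 and 19.1 at day 4. KO replicate 2 lay within the WT range at day 1 and the other KO libraries below it. The difference at day 0, 2.01 ± 0.85, did not pass (adjusted p = 0.295), and that at day 1, −1.32 ± 0.38, did (adjusted p = 0.00964). Its change from day 0 to day 1 was lower in KO (log2 difference −3.33 ± 0.93, adjusted p = 0.0239). Spc24 rose by day 1 in both genotypes, by 2.66 ± 0.39 in WT and 2.62 ± 0.41 in KO, and its changes differed by −0.04 ± 0.57 (adjusted p = 0.982). Cenpa, the histone H3 variant of centromeres, went from 1.79 ± 0.625 at day 1 to 40.3 ± 11.5 at day 4 in WT and from 1.80 ± 1.42 to 29.5 ± 3.46 in KO. Cenpe, the kinetochore motor, reached 31.3 ± 3.52 in WT and 27.9 ± 10.0 in KO at day 4, and Cenpf 23.9 ± 5.65 and 17.2 ± 3.25. Cenpf stood at 0.576 ± 0.386 in uninjured WT and 15.1 ± 15.1 in uninjured KO, a difference that did not pass (adjusted p = 0.0592).

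Of the 8 spindle motors and microtubule proteins, Ckap2l alone passed the limma test in WT by day 1, and the other 7 rose between day 1 and day 4. Kif2c, Kif4 and Kif18b, with 0 to 2 reads in uninjured WT, were higher by day 1 too by plain ratio. Their ratios in WT were 40.5, at least 40.3 and 109. Kif11, Eg5 of the spindle, pushes the poles apart, and it was not called between day 0 and day 4. Kif11 (ENSMUSG00000012443) read 9.25, 17.3, 7.12 and 9.87 in uninjured WT, 4.17, 9.02, 5.46 and 7.70 at day 1 and 8.997, 12.7, 15.7 and 20.7 at day 4. In KO, Kif11 read 31.8, 3.83, 23.5 and 3.79 uninjured, 4.42, 8.13, 6.80 and 4.14 at day 1 and 10.2, 4.56, 15.3 and 11.4 at day 4. The WT groups overlapped at days 0 and 4, and 2 uninjured KO libraries were above all injured KO libraries. Kif11 changed in WT by 0.40 ± 0.54 from day 0 to day 4 (adjusted p = 0.589) and rose by 1.02 ± 0.31 from day 1 (adjusted p = 0.00466).

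Kif4 encodes a chromokinesin of chromosome arms and the central spindle. Kif4 (ENSMUSG00000034311) read 0.0344, 0.0365, 0.0385 and 0.0332 in uninjured WT, 4.01, 0.941, 2.79 and 0.664 at day 1 and 9.07, 5.91, 3.25 and 10.5 at day 4. In KO, Kif4 read 31.1, 11.2, 7.20 and 0.137 uninjured, 0.0278, 0.504, 0.130 and 0.0267 at day 1 and 0.353, 1.11, 5.29 and 2.11 at day 4. It had 0 reads in uninjured WT, yet 3 of 4 uninjured KO libraries were above every KO library at days 1 and 4, and at day 1 all KO libraries were below all WT libraries. Uninjured KO was at least 244-fold higher than uninjured WT, against the floor of 3 reads over the group, but the limma test did not pass (2.91 ± 0.90, adjusted p = 0.107). Kif4 fell by 2.75 ± 0.71 in KO by day 1 (adjusted p = 0.00271). Its change from day 0 to day 1 was lower in KO (log2 difference −4.18 ± 0.98, adjusted p = 0.00728) and that from day 0 to day 4 too (log2 difference −4.39 ± 1.07, adjusted p = 0.0391), and the second call held in 20 of 33 other settings.

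Ckap2l encodes a spindle protein of dividing cells. Ckap2l (ENSMUSG00000048327) read 0.0344, 0.0365, 0.193 and 0.0332 in uninjured WT, 4.96, 9.79, 3.35 and 6.57 at day 1 and 8.58, 6.12, 6.23 and 6.18 at day 4. In KO, Ckap2l read 4.48, 0.322, 9.91 and 3.52 uninjured, 0.750, 0.600, 0.0261 and 2.65 at day 1 and 0.589, 3.82, 0.512 and 7.04 at day 4. All uninjured KO libraries were above all uninjured WT libraries, and at day 1 this was turned round. The uninjured WT libraries held 2 reads, and the ratio of KO to WT was 139.5, with an exact 95% interval of 38.3 to 1157. Ckap2l rose by 2.66 ± 0.61 in WT by day 1 (adjusted p = 0.000726), was lower in KO at day 1 (log2 difference −1.92 ± 0.36, adjusted p = 0.000193), and its change was lower in KO (log2 difference −3.94 ± 0.89, adjusted p = 0.00541). Plk4, the kinase of centriole duplication, rose from day 1 to day 4 by 1.33 ± 0.22 in WT and 0.81 ± 0.31 in KO, and Hmmr, a spindle protein, by 2.45 ± 0.37 and 1.998 ± 0.53. Kif2c, a kinesin that shortens microtubules, Kif18b, a motor of their plus ends, and Nusap1, which bundles them, rose over that step in WT by 1.11 ± 0.36, 1.89 ± 0.41 and 1.67 ± 0.37, and in KO changed by 0.43 ± 0.51, 1.03 ± 0.59 and 0.98 ± 0.53 with no call.

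**Figure D4:**
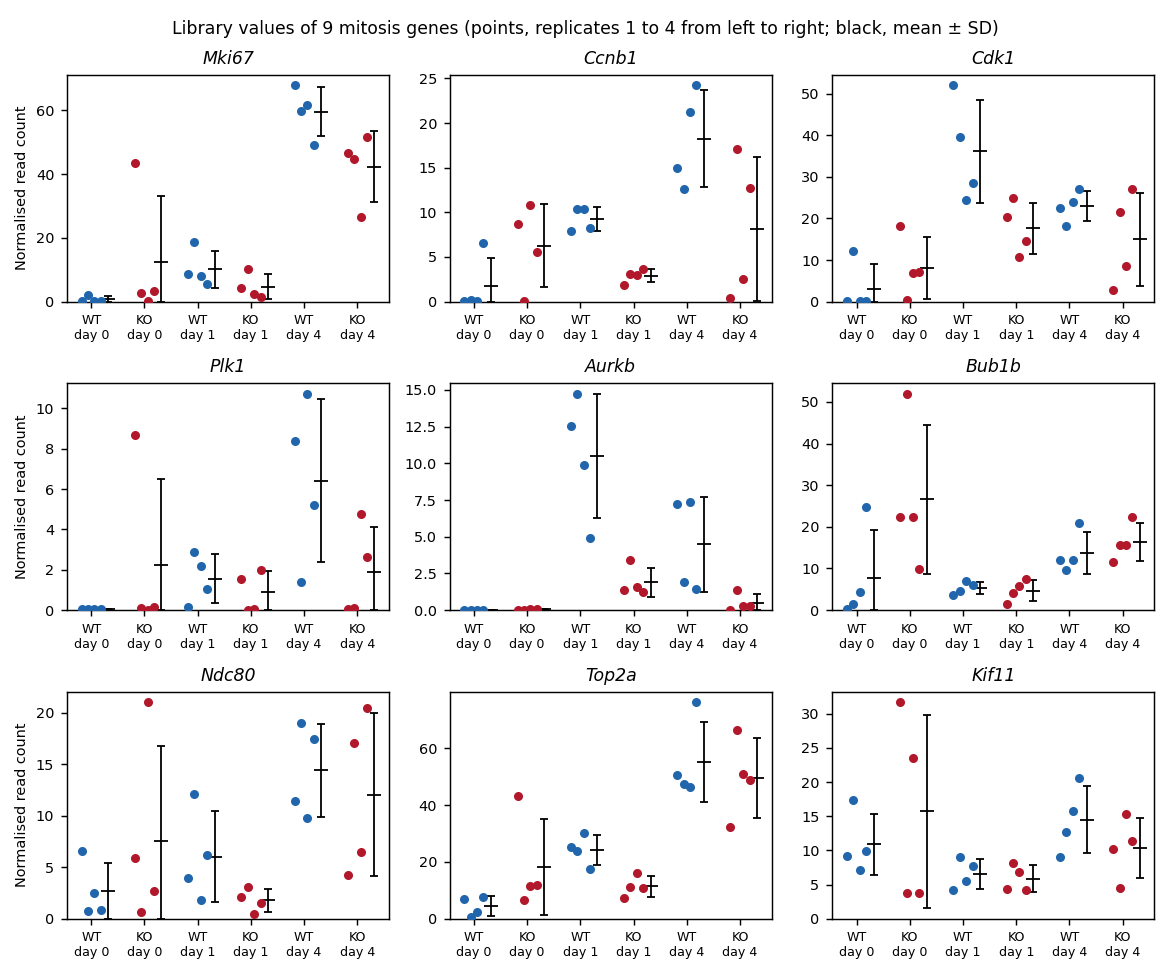
Normalised read counts of 9 mitosis genes, chosen with earlier results of these data known, with 1 panel a gene and its own linear axis from 0. Points are the 4 libraries of each group in replicate order (blue WT, red KO), and black bars the mean ± SD. Mki67 of uninjured KO shows 1 high library at 43.4 beside 3 at 0.304 to 3.24, and WT at day 4 lies between 49.2 and 67.8.

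Of the 6 genes of the central spindle and cytokinesis, Racgap1, Ect2 and Anln rose in WT by day 1, and Prc1, Kif23 and Anln between day 1 and day 4. Anln encodes anillin, the scaffold of the contractile ring. Anln (ENSMUSG00000036777) read 0.310, 8.65, 0.0385 and 0.233 in uninjured WT, 6.499, 13.4, 4.81 and 6.87 at day 1 and 16.9, 28.8, 21.6 and 21.6 at day 4. In KO, Anln read 0.166, 0.251, 7.32 and 0.320 uninjured, 2.36, 1.22, 2.89 and 1.90 at day 1 and 3.26, 4.73, 22.7 and 23.1 at day 4. Each uninjured group held 1 library far above its others, and at day 1 all KO libraries were below all WT libraries. Anln was lower in KO at day 1 (log2 difference −1.47 ± 0.38, adjusted p = 0.00487), and from day 1 to day 4 it rose by 1.45 ± 0.39 in WT and 1.84 ± 0.56 in KO (adjusted p = 0.00183 and 0.00681).

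Kif20a encodes a motor of the central spindle. Kif20a (ENSMUSG00000003779) read 0.0344, 0.328, 12.5 and 0.698 in uninjured WT, 4.51, 6.17, 4.99 and 3.37 at day 1 and 8.93, 1.54, 4.62 and 2.44 at day 4. In KO, Kif20a read 2.89, 0.107, 6.65 and 3.61 uninjured, 0.528, 1.56, 3.57 and 1.90 at day 1 and 0.432, 0.699, 15.9 and 2.89 at day 4. Every group but WT at day 1 ran over a wide range, set by 1 library in uninjured WT and in KO at day 4. Its change from day 0 to day 4 in WT was 0.99 ± 0.78 (adjusted p = 0.329). Prc1, which bundles the microtubules of the central spindle, went from 12.3 ± 5.77 at day 1 to 72.3 ± 11.2 at day 4 in WT and from 11.01 ± 3.33 to 30.9 ± 13.01 in KO. Its highest KO library at day 4, 48.0, was below its lowest WT library, 62.1, but the difference of −1.28 ± 0.57 did not pass (adjusted p = 0.387). Kif23 and Racgap1, the parts of centralspindlin, reached 12.1 ± 0.619 and 24.2 ± 4.02 in WT and 6.45 ± 3.18 and 15.02 ± 9.05 in KO at day 4. Racgap1 was lower in KO at day 1 (log2 difference −0.97 ± 0.33, adjusted p = 0.0315), a call kept in 24 of 33 other settings. Ect2, which activates RhoA at the cell equator, rose by 2.88 ± 0.66 in WT by day 1 and changed by 1.29 ± 0.69 in KO (adjusted p = 0.14).

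Of the 6 condensin and chromatin genes, all but Smc4 rose in WT by day 1. Smc2 encodes a core ATPase of condensin and had the largest change of the 50 genes over that step on the log2(value + 1) scale, though not by plain ratio: Aurkb and Ttk, with 0 reads uninjured, were at least 199.5-fold and 146-fold higher against the 3-read floor over the group. Smc2 (ENSMUSG00000028312) read 0.172, 0.0365, 16.5 and 0.233 in uninjured WT, 82.0, 78.1, 56.4 and 80.7 at day 1 and 29.5, 57.0, 28.7 and 45.0 at day 4. In KO, Smc2 read 58.0, 12.1, 23.2 and 22.8 uninjured, 42.0, 49.9, 40.6 and 33.9 at day 1 and 42.1, 26.8, 45.2 and 44.5 at day 4. Among uninjured WT libraries only replicate 3 held Smc2 above 0.233, and it lay within the range of uninjured KO. Smc2 rose by 5.04 ± 0.50 in WT by day 1 (adjusted p = 6.67e-09) and changed by 0.71 ± 0.53 in KO (adjusted p = 0.298). Smc2 was higher in KO than in WT at day 0 (log2 difference 3.51 ± 0.66, adjusted p = 0.00505) and lower at day 1 (log2 difference −0.82 ± 0.29, adjusted p = 0.0387). The call at day 0 was kept in 30 of 32 other settings and that at day 1 in 22. The change of the difference was −4.33 ± 0.73 from day 0 to day 1 (adjusted p = 0.000345) and −3.50 ± 0.79 from day 0 to day 4 (adjusted p = 0.0242).

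Smc4 encodes the other core ATPase and was read well above the floor in every library. Smc4 (ENSMUSG00000034349) read 43.7, 72.7, 104 and 124 in uninjured WT, 77.4, 71.0, 66.9 and 78.2 at day 1 and 127, 132, 87.9 and 124 at day 4. In KO, Smc4 read 109, 169, 118 and 110.2 uninjured, 62.3, 64.5, 63.5 and 75.4 at day 1 and 85.6, 77.7, 114 and 125 at day 4. The WT groups at days 0 and 4 overlapped, and uninjured KO was above KO at day 1 in every library. Smc4 changed by 0.54 ± 0.24 from day 0 to day 4 in WT (adjusted p = 0.0787), rose by 0.66 ± 0.14 from day 1 to day 4, and fell by 0.90 ± 0.24 in KO by day 1 (adjusted p = 0.00412). Ncapg and Ncaph encode the non-SMC subunits of condensin I. Ncaph rose by day 1 in both genotypes, to 28.0 ± 5.28 in WT and 21.1 ± 4.92 in KO, and Ncapg stood at 10.9 ± 4.02 and 6.61 ± 6.87 then and at 21.6 ± 9.26 and 16.6 ± 4.17 at day 4. The change of Ncapg from day 0 to day 1 was lower in KO (log2 difference −3.70 ± 1.17, adjusted p = 0.0453), a call kept in 13 of 33 other settings.

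Top2a encodes topoisomerase II alpha, which untangles sister chromatids, and it rose in both WT steps. Top2a (ENSMUSG00000020914) read 6.84, 0.620, 2.35 and 7.74 in uninjured WT, 25.2, 23.97, 29.98 and 17.4 at day 1 and 50.5, 47.4, 46.3 and 76.1 at day 4. In KO, Top2a read 43.0, 6.48, 11.4 and 11.7 uninjured, 7.19, 11.3, 16.04 and 10.9 at day 1 and 32.2, 66.4, 50.8 and 48.7 at day 4. At day 1 every KO library was below every WT library, and at day 4 the genotypes overlapped. Top2a rose by 2.49 ± 0.45 in WT by day 1 (adjusted p = 4.36e-05), was lower in KO at day 1 (log2 difference −1.05 ± 0.26, adjusted p = 0.00351) and differed by −0.17 ± 0.38 at day 4 (adjusted p = 0.933). Its change from day 0 to day 1 was lower in KO (log2 difference −2.83 ± 0.65, adjusted p = 0.00598), a call that held in all 33 other settings.

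Mki67 encodes Ki-67, which coats mitotic chromosomes and marks cycling cells. Mki67 (ENSMUSG00000031004) read 0.103, 2.23, 0.346 and 0.0997 in uninjured WT, 8.53, 18.6, 7.90 and 5.44 at day 1 and 67.8, 59.7, 61.6 and 49.2 at day 4. In KO, Mki67 read 43.4, 2.75, 0.304 and 3.24 uninjured, 4.25, 10.2, 2.48 and 1.47 at day 1 and 46.6, 44.7, 26.5 and 51.7 at day 4. The 3 WT groups did not overlap, and in uninjured KO replicate 1 lay within the range of KO at day 4 while the other libraries were below it. Mki67 rose by 2.75 ± 0.69 by day 1 and 2.56 ± 0.41 from day 1 to day 4 in WT (adjusted p = 0.0017 and 4.92e-06). In KO it changed by −0.21 ± 0.72 by day 1 (adjusted p = 0.853) and then rose by 3.15 ± 0.59 (adjusted p = 6.91e-05). It was lower in KO at day 1 (log2 difference −1.1 ± 0.40, adjusted p = 0.0447), a call kept in 14 of 32 other settings.

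The 5 genes of APC/C and separase control did not move as 1 group. Cdc20 and Ube2c rose in WT by day 1, Espl1 and Cdca3 between day 1 and day 4, and Pttg1 fell. Pttg1 encodes securin, the inhibitor of separase that the APC/C destroys at anaphase. Pttg1 (ENSMUSG00000020415) read 187, 193, 164 and 169.9 in uninjured WT, 78.8, 62.9, 57.3 and 70.2 at day 1 and 20.9, 29.4, 17.04 and 25.7 at day 4. In KO, Pttg1 read 138, 74.5, 73.7 and 149 uninjured, 22.1, 29.6, 17.8 and 25.9 at day 1 and 22.3, 23.96, 14.3 and 17.2 at day 4. The 3 WT groups did not overlap, at day 1 every KO library was below every WT library, and the KO libraries of day 1 overlapped those of day 4. Pttg1 changed in WT by −1.40 ± 0.28 by day 1 and −1.51 ± 0.16 from day 1 to day 4 (adjusted p = 0.000132 and 8.79e-09). In KO it fell by 2.09 ± 0.29 by day 1 (adjusted p = 1.92e-06) and changed by −0.28 ± 0.23 after (adjusted p = 0.316). It was lower in KO at day 1 (log2 difference −1.47 ± 0.16, adjusted p = 9.31e-08), and its change from day 1 to day 4 was higher in KO by 1.23 ± 0.29 (adjusted p = 0.00605).

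Cdc20, the activator of the APC/C, stood at 10.1 ± 2.39 in WT and 7.31 ± 3.799 in KO at day 1, and Ube2c, its ubiquitin-conjugating enzyme, reached 25.6 ± 5.77 and 20.1 ± 10.8 at day 4. In uninjured KO, Cdc20 read 0.0995, 17.1, 55.7 and 0.594, so its mean of 18.4 came from 2 libraries. Espl1, which encodes separase, rose from day 1 to day 4 by 1.70 ± 0.28 in WT and 1.94 ± 0.41 in KO. Cdca3, an APC/C target that promotes mitotic entry, rose over that step by 2.40 ± 0.34 and 2.02 ± 0.49.

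Further mitosis genes outside the 50, taken from 7 lists with 99 members in the table, were counted too, and their difference from the 50 was not tested. In WT, 52 of the 99 were higher and 15 lower at day 4 than at day 0 (23.4% and 17.3% of all genes), with a median of 1.51. By day 1, 49 rose and 10 fell (26.8% and 24.2% of all genes). From day 1 to day 4, 30 rose and 32 fell, shares below and near the 38.8% and 30.8% of all genes. In KO, 16 rose and 13 fell from day 0 to day 4, near the 15.3% and 13.8% of all genes. At day 1, 29 of the 99 were lower in KO than in WT and 6 higher (11.5% and 15.2% of all genes). By DESeq2 9 were lower, without library weights 5 and by edgeR 4, where 3.69%, 2.08% and 1.41% of all genes were.

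Counts by list stand against 23.4% of all genes higher and 17.3% lower in WT at day 4 than at day 0, and no difference between lists was tested. Of 16 APC/C subunits and partners 10 rose by day 1 in WT and 12 fell from day 1 to day 4 (26.8% and 30.8% of all genes). At day 4, 6 were higher and 3 lower than at day 0. On the log2 scale, the subunits Anapc2 and Anapc4 were higher by 4.24 ± 0.49 and 3.42 ± 0.57, and Fzr1, the CDH1 activator, by 2.55 ± 0.50. The chain-extending enzyme Ube2s and the subunits Anapc16 and Anapc5 were lower, at −0.97 ± 0.26, −0.88 ± 0.24 and −0.83 ± 0.27. Of 15 genes of cohesin, the ring that holds sister chromatids, and its regulators, 4 were higher, a share near that of all genes, and 8 lower. Sgo2a and Sgo1, the shugoshins that protect centromeric cohesin, and Esco2, its acetyltransferase in S phase, were higher by 3.29 ± 0.70, 2.94 ± 0.63 and 2.60 ± 0.71. The loader Nipbl and the ring subunits Stag2 and Stag1 were lower, at −1.81 ± 0.18, −1.71 ± 0.23 and −1.495 ± 0.24.

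Of 17 inner centromere genes 11 were higher and 2 lower at day 4 than at day 0 in WT. Cenpp and Cenpk, which belong to the inner kinetochore, were higher by 3.23 ± 0.55 and 3.21 ± 0.60. Cenpq and Cenpc1 were lower, at −2.80 ± 0.36 and −0.91 ± 0.23. Of 14 outer kinetochore genes 6 were higher and 1 lower. Knl1, the checkpoint platform, Spdl1, a dynein adaptor, and Zwilch of the RZZ complex were higher by 3.39 ± 0.64, 2.54 ± 0.59 and 2.12 ± 0.63, and Zwint was lower, at −1.49 ± 0.17. Of 4 other condensin subunits Ncapd2 alone was higher, by 3.68 ± 0.46. Of 13 kinases and phosphatases of mitotic entry and exit 8 were higher and 1 lower. The kinases Pbk and Mastl and the cyclin Ccnf were higher by 3.82 ± 0.75, 2.65 ± 0.72 and 3.38 ± 0.49, and Ensa, a target of MASTL, was lower, at −1.72 ± 0.23. Of 20 other spindle and cytokinesis genes 16 were higher and 0 lower (limma, with 18 at an unadjusted p under 0.05), among them the motor Kif15, the spindle protein Tacc3 and the abscission protein Cep55, by 3.60 ± 0.62, 3.39 ± 0.59 and 3.30 ± 0.47.

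DNA replication genes, which act earlier in the cell cycle, kept another time course. Of 41 such genes 37 rose in WT by day 1, with a median of 3.18, and 35 fell from day 1 to day 4, with a median of −1.84 (26.8% of all genes rose and 30.8% fell). In KO, 32 rose by day 1 and 30 fell after it, with medians of 2.39 and −1.70 (22.6% and 25.9% of all genes). Library medians of log2(value + 1) of these genes were 5.74 to 6.05 in WT and 5.31 to 5.65 in KO at day 1, against 2.23 to 3.14 and 2.47 to 3.50 uninjured. For the 50 mitosis genes the same medians were 2.85 to 3.32 in WT and 1.86 to 2.65 in KO at day 1, against 0.31 to 1.00 and 1.76 to 3.43 uninjured. The 4 KO medians of the mitosis genes at day 1 thus lay within the span of the uninjured KO libraries, and those of DNA replication genes lay above it. At day 1, 10 of the 41 replication genes were lower in KO than in WT by limma, 1 by DESeq2 and without library weights, and 0 by edgeR, where 11.5%, 3.69%, 2.08% and 1.41% of all genes were.

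**Figure D5:**
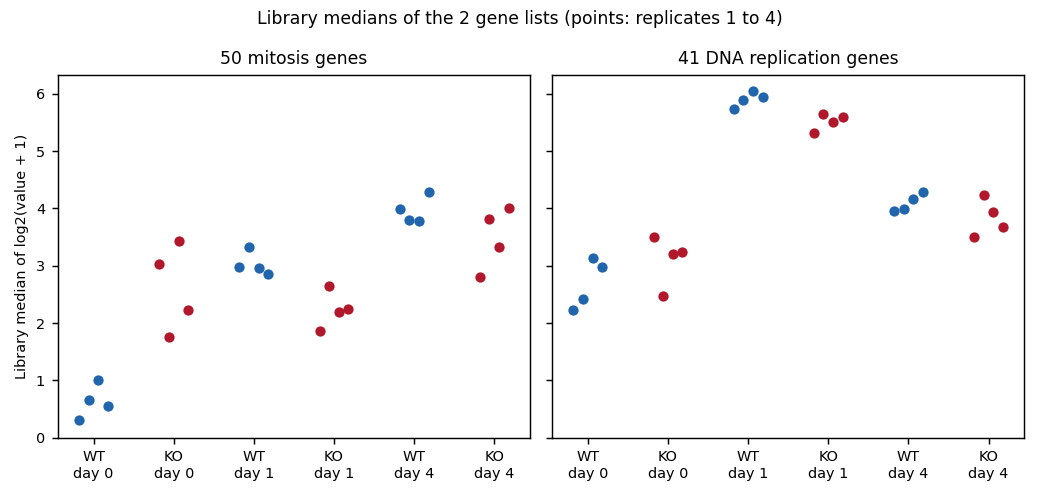
Median of log2(value + 1) over the 50 mitosis genes (left) and 41 DNA replication genes (right) in each library (points, 4 per group, blue WT, red KO). Replication medians are highest at day 1 in both genotypes (5.31 to 6.05), and mitosis medians are highest at day 4 in WT (3.78 to 4.28).

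Reads were counted with no statement of strand, and 10 of the 50 genes have exons that overlap a gene of the table on the opposite strand in GENCODE annotation of GRCm38. These are Ccna2 with Exosc9, Cdc20 with Elovl1, Cdc25c with Gm3550, Cdca8 with 9930104L06Rik, Kif20a with Cdc23, Kif4 with Pdzd11, Ncapg with Lcorl, Nusap1 with Oip5, Prc1 with Rccd1 and Ube2c with Tnnc2. Reads of a pair cannot be told apart without strand, so the values of these 10 are uncertain to that extent.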

How the data were processed

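Muscle stem cell RNA was made into libraries with SMART-Seq v4 Ultra Low Input, per the labels' protocols, and FastQC, STAR, RSEM, limma and the build mm39 are named without roles or versions, per the submitters' processing notes. The deposited signal is a linear normalised read count, which the authors scaled per library, and strand use is not given in the sources used here. All values are whole counts plus 0.5 over a scaled library size (100% whole within 0.02). Total counts were 11.58 to 22.47 M per library. Intervals and floors cover counting error only. Libraries were grouped by genotype and day from their titles, and all carry batch 1.

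Of 17111 genes, 16985 reached a value of 1 in at least 4 libraries and 126 did not. Symbols that were missing or read as dates, 45 in all, were looked up by identifier. The test was limma 3.58.1 in R 4.3.3 on log2(value + 1) over 6 groups and 24 libraries, with 1 weight per group and a mean trend, two-sided, over 12 contrasts, each adjusted by Benjamini-Hochberg. Weights per group were used because the spread differed between groups. In simulated data the weighted fit called fewer unchanged genes at day 0 than the unweighted fit, and with either fit the share of unchanged genes among the calls could exceed the nominal threshold. Alternatives were no filter, pseudocounts of 0.5 and 5, no weights, quantile normalization, only the groups compared, a replicate block, leaving out each library, and count tests on the recovered reads (edgeR 4.0.16, DESeq2 1.42.0). By edgeR, WT at day 1 against day 0 had 3982 higher genes and 4416 lower, and KO against WT at day 1 had 1168 and 239. Tables and plots used Python 3.11.15, pandas 2.3.3, scipy 1.17.1 and matplotlib 3.10.9.

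Values in every library are given for 9 members fixed by name, for the largest and smallest change in WT at day 1 and at day 4 against day 0, for up to 6 members by adjusted p in each genotype or interaction contrast, and for members not called in WT at day 4 against day 0. The other lists are named by up to 3 called genes each way, by their change over the same days, and 1 gene that this rule names is not reported here. The members and lists were chosen with earlier results of these data known. Promoters came from RefSeq tables on GRCm38.p6, and gene overlaps from GENCODE on GRCm38. Depdc1b was not used here.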

Additional observations from a re-analysis of the deposited data

Results flagged for a closer look

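In 46 of the 300 sets of 4 libraries (50 genes in 6 groups), the highest or the lowest library lay so far from the nearest of the others, relative to the whole range, that the gap passed Dixon's 95% critical value for 4 values. Chance flags about 1 in 20 such sets where values are normally distributed. These are linear counts, many of them near 0 reads when uninjured, so that rate need not hold here. Of the 46, 22 were in uninjured WT, 10 in uninjured KO, 1 in WT and 4 in KO at day 1, and 5 in WT and 4 in KO at day 4. In 43 the library stood above the others and in 3 below. Values are normalised read counts, and causes were not tested. In uninjured WT the gap for Foxm1 and Kif18b is 1 read against 0 and that for Bub1, Kif2c and Ckap2l 2 reads against 0, so these 5 rest on 1 or 2 reads. In uninjured WT, replicate 1 was far above the others in Aurka at 1.48, Incenp at 4.51 and Tpx2 at 14.8. In uninjured WT, replicate 2 was far above the others in Cdk1 at 12.2, Anln at 8.65 and Mki67 at 2.23. In uninjured WT, replicate 3 was above the others in Ccna2 at 3.66, Bub1 at 0.193, Cdca8 at 4.12, Kif2c at 0.193, Ckap2l at 0.193, Kif20a at 12.5, Ect2 at 3.73, Smc2 at 16.5 and Cdc20 at 1.81. In uninjured WT, replicate 4 was above the others in Ccnb1 at 6.55, Foxm1 at 0.0997, Bub1b at 24.7, Cenpe at 12.6, Kif18b at 0.0997, Nusap1 at 6.61 and Ube2c at 3.02. In uninjured KO, replicate 1 was far above the others in Plk1 at 8.66, Top2a at 43.0 and Mki67 at 43.4. In uninjured KO, replicate 2 was far above the others in Smc4 at 169 and Espl1 at 3.11. In uninjured KO, replicate 3 was far above the others in Ccna2 at 15.3, Aurka at 7.87, Cenpe at 8.75 and Anln at 7.32. In uninjured KO, replicate 4 was far above the others in Ect2 at 6.53. In KO at day 1, replicate 2 was far above the others in Cdc25c at 1.99 and Foxm1 at 1.27. In KO at day 1, replicate 4 was far above the others in Ccnb2 at 8.26 and Smc4 at 75.4. In WT at day 4, replicate 1 was far above the others in Ckap2l at 8.58. In WT at day 4, replicate 4 was far above the others in Ncapg at 35.5, Top2a at 76.1 and Cdca3 at 23.9. In KO at day 4, replicate 1 was far above the others in Cdca3 at 24.6. In KO at day 4, replicate 3 was far above the others in Kif2c at 4.20 and Kif20a at 15.9. Libraries far below the others were WT at day 4 replicate 1 for Kif18b at 5.83, WT at day 1 replicate 3 for Smc2 at 56.4 and KO at day 4 replicate 2 for Smc2 at 26.8.

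The genotypes differed in their change over days by the limma interaction test (adjusted p under 0.05 over 16985 genes) for 9 genes from day 0 to day 1, 1 from day 1 to day 4 and 3 from day 0 to day 4, each value being the log2 change in KO minus that in WT. Up to day 1 it was −3.33 for Spc25, −3.70 for Ncapg, −2.83 for Top2a, −3.68 for Nuf2, −4.33 for Smc2, −2.81 for Mad2l1, −4.18 for Kif4, −2.33 for Ttk and −3.94 for Ckap2l. Between days 1 and 4 it was 1.23 for Pttg1. Up to day 4 it was −4.27 for Nuf2, −3.50 for Smc2 and −4.39 for Kif4. For Nuf2, Kif4 and Ckap2l the uninjured WT libraries held 0 to 3 reads in all. Without KO day 0 replicate 1, which carries 62.6% of the uninjured KO sum of Kif4, 7 genes differed from day 0 to day 1 and 1 from day 0 to day 4.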

How the results depend on the processing

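Members called were counted again under 33 other settings. The share of all genes called moved with the setting too. For WT from day 1 to day 4, 24% of all genes were higher by edgeR and 28.6% by DESeq2, in place of 38.8%. Counts of called genes among the 50, given as higher or lower, moved by over 1.5 times as follows. From day 1 to day 4 in WT, edgeR and DESeq2 gave 11 and 16 higher in place of 26, and 3 lower without library weights and 2 by edgeR and by DESeq2 in place of 6. In KO from day 0 to day 1, 6 were higher by edgeR and by DESeq2 in place of 3, and 5 lower with only the groups compared in place of 8. In KO from day 1 to day 4, 14 were higher by edgeR in place of 22, and 1 lower without library weights, by edgeR and by DESeq2 in place of 2. In KO from day 0 to day 4, 16 were higher without library weights in place of 10. Between genotypes at day 0, 1 was higher with a pseudocount of 5, 13 without library weights, 0 with only the groups compared, 12 by edgeR and 17 by DESeq2 in place of 2, and 1 was lower without library weights and 2 by DESeq2 in place of 0. At day 1, 4, 1 and 4 were lower without library weights, by edgeR and by DESeq2 in place of 17. At day 4, 1 was lower with a pseudocount of 0.5, without library weights and by DESeq2 in place of 0. The change from day 0 to day 1 was lower in KO for 19 by DESeq2 in place of 9, and that from day 0 to day 4 for 7 without library weights, 1 with only the groups compared, 5 by edgeR and 10 by DESeq2 in place of 3. The cause was not tested.

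With 1 library left out in turn, higher and lower counts ran from 26 to 29 and 1 to 1 (WT day 1 against day 0), 25 to 28 and 6 to 6 (WT day 4 against day 1), 41 to 45 and 2 to 2 (WT day 4 against day 0), 2 to 4 and 4 to 9 (KO day 1 against day 0), 15 to 26 and 1 to 2 (KO day 4 against day 1), and 6 to 14 and 1 to 2 (KO day 4 against day 0). Between genotypes they ran from 1 to 3 and 0 to 0 at day 0, 0 to 0 and 10 to 20 at day 1, and 0 to 0 and 0 to 1 at day 4. For the change over days they ran from 0 to 0 and 6 to 11 (day 0 to 1), 1 to 1 and 0 to 0 (day 1 to 4), and 0 to 0 and 1 to 5 (day 0 to 4). The lower count at day 4 was 1 without WT day 1 replicate 4 or WT day 4 replicate 4. Fallers in KO from day 1 to day 4 were 1 without KO day 1 replicate 2, KO day 4 replicate 2 or KO day 4 replicate 3, and from day 0 to day 4 were 2 without KO day 0 replicate 4 or KO day 4 replicate 2.

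The median change in KO from day 0 to day 1, −0.18, ran from −0.381 to 0.053 with libraries left out and turned to the latter without KO day 0 replicate 1. The median of the genotype difference in change from day 1 to day 4, 0.07, turned to −0.14 with quantile normalization, and ran from −0.196 to 0.323 with libraries left out (−0.026 without WT day 1 replicate 2, −0.062 and −0.007 without KO day 1 replicates 3 and 4, −0.013 without WT day 4 replicate 2, −0.051 and −0.196 without KO day 4 replicates 2 and 4). No called gene changed sign under any setting. Of the 185 calls, 73 were lost by edgeR, 34 by DESeq2, 29 without library weights, 28 with quantile normalization, 23 with only the groups compared, 12 and 3 with a pseudocount of 5 and 0.5, and 0 with no filter.

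Same-numbered libraries correlated by −0.024 to 0.27 in their deviations from group means, not over 0.1 in every pair. The highest value was that of replicate 3 of WT and KO at day 1. Between WT days, replicates 1 and 3 correlated best with their own number, but not every library did so. Low correlations cannot exclude that same-numbered libraries belong together, so whether the numbers pair the samples stays undecided. With a replicate block, 0 of the 185 calls were lost, and genes lower in KO at day 1 went from 17 to 19 and those with a lower change from day 0 to day 1 from 9 to 11. Low read numbers were most frequent in the uninjured groups, where 36 genes in WT and 24 in KO had a library at 3 reads or fewer. Of these, 12 in WT and 15 in KO also had a library at a value of 5 or more. The part of low read numbers in the spread was not tested.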
